A study of Mus musculus with 6 samples.

Results

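The ETS transcription factors of blood cells outside the PEA3 subgroup were examined in mouse pre-B cells transformed by BCR-ABL1, a fusion tyrosine kinase that drives one form of acute lymphoblastic leukemia. They were Spi1, Spib, Spic, Ets1, Ets2, Fli1, Erg, Etv6, Elf1 and Gabpa, chosen by name from the gene symbols of the platform annotation. All 10 had a probe set with a single gene symbol, and each had exactly 1, so that 10 of 35556 probe sets, or 10 of 19938 named genes, are described. Total RNA of 3 samples labelled ETV5 WT and 3 labelled ETV5 KO was hybridised to 1-colour Affymetrix arrays. Cells of both genotypes carried the same oncogene, and the strain of all of them was given as 129SvEv. The labels name no drug treatment, and neither the deleted exons, the age of the mice nor the origin of the 3 samples of a genotype is given in the sources used here. The p-values therefore rest on the variation among these arrays, part or all of which may be technical. Etv5, the deleted gene, belongs to the PEA3 subgroup together with Etv1 and Etv4.

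ETS factors share a winged helix-turn-helix DNA-binding domain, the ETS domain, which contacts the core sequence GGAA. Bases beside the core differ between classes: factors such as Ets1, Fli1 and Gabpa prefer CCGGAAGT, whereas PU.1 (the product of Spi1), Spi-B (of Spib) and Spi-C (of Spic) prefer purine-rich sites such as GAGGAAGT. Because several family members are present in the same B cell, sites can be bound by more than 1 of them. PU.1 and Spi-B act together in B lineage cells, in which loss of both, but not of either alone, blocks development at the pre-B cell stage and leads to leukemia in mice.

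The windows of 250 bases before the annotated start of Spib, Ets2 and Gabpa are shown to display how such cores lie in front of these ETS genes. Spib and Ets2 had the largest positive differences between the genotypes and Gabpa one of the smallest. Capitals mark GGAA or its reverse complement TTCC, each sequence is read in the direction of its gene, and all are from RefSeq, build GRCm38.p6.
Spib, chr7:44532072-44532321, minus strand: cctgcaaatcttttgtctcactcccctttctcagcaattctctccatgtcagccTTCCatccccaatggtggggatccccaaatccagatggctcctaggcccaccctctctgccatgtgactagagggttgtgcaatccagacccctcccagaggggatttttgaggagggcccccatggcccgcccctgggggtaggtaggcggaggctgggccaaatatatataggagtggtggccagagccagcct
Ets2, chr16:95702157-95702406, plus strand: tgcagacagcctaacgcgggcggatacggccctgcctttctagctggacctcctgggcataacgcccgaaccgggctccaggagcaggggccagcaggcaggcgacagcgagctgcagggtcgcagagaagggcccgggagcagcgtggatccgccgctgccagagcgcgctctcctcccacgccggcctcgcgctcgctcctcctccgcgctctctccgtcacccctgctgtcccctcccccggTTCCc
Gabpa, chr16:84834874-84835123, plus strand: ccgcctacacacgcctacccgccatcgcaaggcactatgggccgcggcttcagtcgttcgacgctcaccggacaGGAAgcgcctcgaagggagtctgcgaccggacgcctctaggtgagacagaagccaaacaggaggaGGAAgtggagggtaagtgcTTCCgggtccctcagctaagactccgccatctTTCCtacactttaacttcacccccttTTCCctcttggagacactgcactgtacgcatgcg
Such windows were available for 7 of the 10 genes (10 windows), but not for Spi1, Ets1 and Fli1. The core was present once in front of Spib, 196 bases before the start, and once in front of Ets2, 5 bases before it. Gabpa held 5 cores. Over all 32851 windows of this length, 93.4% held at least 1 core and the median number was 3. The longer sequence GAGGAAGT, searched on both strands, was found in front of Gabpa, 113 bases before the start, where it overlaps one of the cores. None of the other 9 windows held it, and none of the 10 held CCGGAAGT, while 2.44% and 2.88% of all windows did. These are matches of letters, with no measurement of binding behind them.

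The labels were checked first against the deleted gene and against pre-B cell markers. The annotation gives Etv5 a pair of probe sets, whose differences had opposite signs. The dimmer one read 9.30, 9.52 and 9.27 on the wild-type arrays and 8.97, 8.91 and 8.92 on those of the knockout. Its log2 difference was -0.43 (limma adjusted p = 0.0467). The other, brighter one differed by 0.28 (adjusted p = 0.130). Where the probes of either lie in the genome and relative to the deletion was not checked. By probe-set number, the dimmer one falls between those of Gabpa and Erg, genes of chromosome 16 like Etv5. The number of the brighter one falls outside that range, so it may not read the deleted gene. Whether such numbers follow genome position was not checked. The 12 measured B cell precursor markers had probe sets brighter than 67.4% (Rag2) to 99.7% (Igll1) of all, with Rag1 at 68.1%. Of these 12, the B lineage factor gene Pax5 rose, Dntt, which encodes terminal transferase, fell by 0.37 on the log2 scale (adjusted p = 0.0132), and Vpreb2, which encodes a surrogate light chain, fell by 0.32 (0.0450), while 9 did not pass, Cd79b first among them by p (0.13, adjusted p = 0.401). Dntt lost its call in 4 and Vpreb2 in all of the 6 fits that left out a sample (limma). Array medians lay between 7.79 and 7.84 log2 units, and 1095 of 35556 probe sets passed the test used throughout, limma with Benjamini-Hochberg adjustment over all probe sets at 0.05.

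Spib rose and Ets1 fell in the knockout, and the other 8 genes did not pass the test. Spib was 1.68-fold higher (log2 change 0.75 ± 0.064, SE) and Ets1 1.34-fold lower (log2 change -0.43 ± 0.061). Of all probe sets, 3.08% passed in either direction, 1.63% higher and 1.45% lower in the knockout. Among the 11221 single-gene probe sets with a mean of at least 8 log2 units, a range that holds 9 of the 10 genes, 6.59% passed. The median of the 10 log2 changes was 0.07, beside -0.00098 for all probe sets, and the median absolute change was 0.16, beside 0.068. In 7 of the 10 genes no knockout value fell among the wild-type values, 5 of them higher and 2 lower in the knockout. The groups lay apart in 16.5% of all probe sets and in 29.1% of those with a mean of at least 8.

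**Figure D1:**
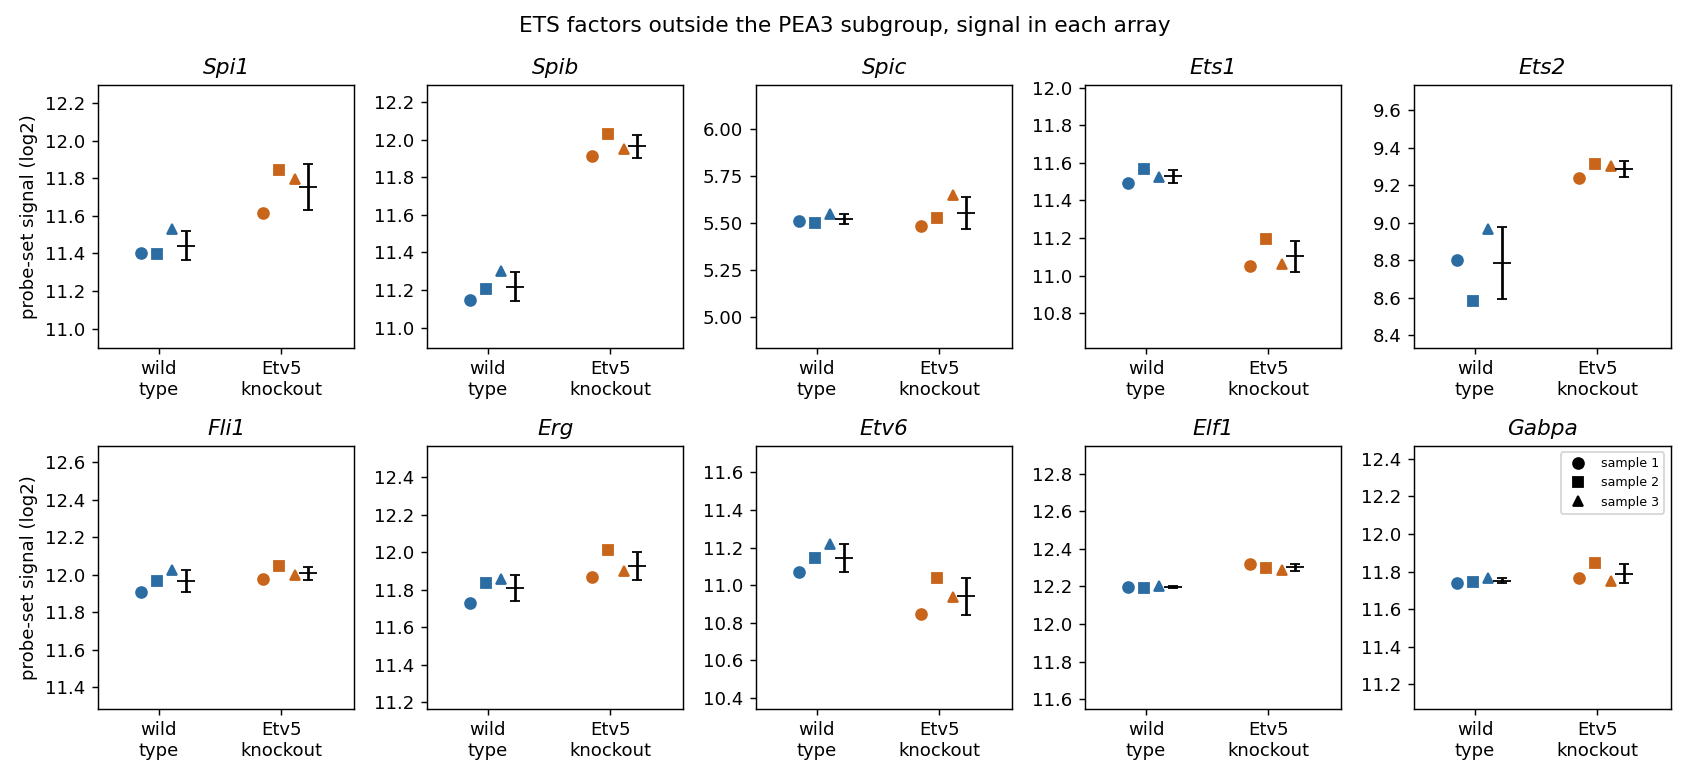
Log2 probe-set signal (vertical axis, the same span of 1.4 log2 units in every panel) of the 10 genes in the 3 wild-type (blue) and 3 Etv5 knockout (orange) arrays. Symbols mark sample numbers, and the bars give the mean and SD of each genotype. Spib and Ets1 show the widest gaps between the groups, 0.61 and 0.30 log2 units, while the groups of Spic, Fli1 and Gabpa overlap.

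Of the PU.1 subfamily, Spib passed and Spi1 and Spic did not. Spib encodes Spi-B, an activator of genes of B cell receptor signalling that is found in B cells and plasmacytoid dendritic cells. Its log2 signal was 11.15, 11.20 and 11.30 in wild-type samples 1 to 3 and 11.91, 12.03 and 11.95 in knockout samples 1 to 3. The lowest knockout value was 0.61 log2 units above the highest wild-type value. The means were 11.22 ± 0.078 and 11.97 ± 0.061 (SD, n = 3 each), with a 95% interval of the difference from 0.59 to 0.90 and a limma adjusted p of 0.00255. Only 1.32% of all probe sets had a larger absolute change. In the fits that left out 1 sample, the adjusted p of Spib lay between 0.0077 and 0.0192 and the log2 change between 0.71 and 0.79.

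Spi1 encodes PU.1, which is needed for both myeloid and B lymphoid development and whose dose influences which lineage is taken. The wild-type arrays gave log2 signals of 11.40, 11.40 and 11.53, the knockout arrays 11.61, 11.85 and 11.80. All knockout values lay above all wild-type values, by at least 0.085 log2 units, but the difference of 0.31 (95% interval 0.12 to 0.50) did not pass the test (limma adjusted p = 0.150). The within-array difference Spib minus Spi1 went from -0.25, -0.19 and -0.23 to 0.30, 0.19 and 0.16 with the knockout, a shift of 0.44 ± 0.047 (SE). This pair was chosen after the values were seen. An exact two-sided permutation test gave p = 0.10, the smallest value that 3 samples against 3 allow; it remained 0.10 after Benjamini-Hochberg adjustment over the 4 such pairs compared. Spic encodes Spi-C, known from red pulp macrophages and from B cells, where it can oppose PU.1. Its probe set was dim, brighter than 11.6% of all probe sets, with wild-type log2 signals of 5.51, 5.50 and 5.55 and knockout signals of 5.48, 5.52 and 5.65. The groups overlapped, and the difference of 0.03 had a 95% interval from -0.11 to 0.18; without knockout sample 3 its sign turned (-0.016). No detection calls come with the values, so it is not known whether Spic was above background.

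Ets1 and Ets2, close relatives that are both phosphorylated downstream of RAS and ERK, had differences of opposite sign, of which that of Ets1 passed. Ets1 is abundant in lymphocytes and restrains the differentiation of B cells to plasma cells. In log2 units it read 11.49, 11.57 and 11.52 on the wild-type arrays, against 11.05, 11.20 and 11.06 on the knockout arrays. Every knockout value was at least 0.30 log2 units below every wild-type value, and the spread within each genotype was small (SD 0.036 and 0.082). The fall of 0.43 on the log2 scale (95% interval -0.57 to -0.28) passed with a limma adjusted p of 0.0179. That call held in 1 of the 6 fits that left out a sample, the one without knockout sample 2 (adjusted p = 0.0241), and was lost in the other 5 (0.0617 to 0.0919). The log2 change stayed between -0.47 and -0.40 in all 6.

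Ets2 gave 8.80, 8.58 and 8.97 log2 units with Etv5 present and 9.24, 9.31 and 9.30 without it. The wild-type samples were spread more widely than the knockout samples (SD 0.19 and 0.042), and the groups did not overlap. The difference of 0.50 (95% interval 0.26 to 0.75), 1.41-fold, did not pass (limma adjusted p = 0.0659). Without wild-type sample 3, which had the highest of the wild-type values, the difference was 0.59 and passed (adjusted p = 0.0387); in the other 5 fits of this kind the adjusted p lay between 0.109 and 0.226. Ets2 also passed under several other settings named in the closing section. The within-array difference Ets1 minus Ets2 shifted by -0.93 ± 0.13 (SE) from wild type to knockout and did not overlap between the genotypes (exact permutation p = 0.10, n = 3 each, the smallest possible).

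**Figure D2:**
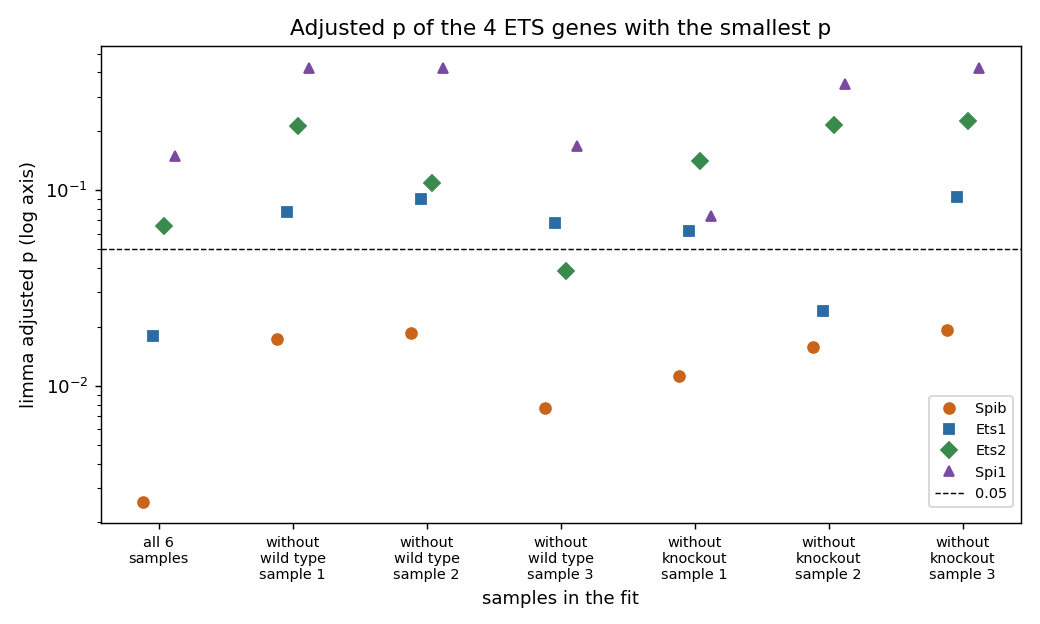
Limma adjusted p (vertical log axis) of Spib, Ets1, Ets2 and Spi1 with all 6 samples and with each sample left out in turn (horizontal axis); the dashed line marks 0.05. Spib lies below the line in all 7 fits, Ets1 with all samples and without knockout sample 2, Ets2 without wild-type sample 3, and Spi1 in none.

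Neither gene of the ERG subfamily passed. Fli1, a factor of megakaryocytes and B cells named after the Friend leukemia virus integration site, had wild-type log2 signals of 11.91, 11.97 and 12.03 and knockout signals of 11.98, 12.05 and 12.00. The groups overlapped, and the difference was 0.04 (95% interval -0.09 to 0.17, limma adjusted p = 0.938). Erg, needed by blood stem cells and early B cells and deleted in some human B cell leukemias, gave 11.73, 11.84 and 11.86 log2 units on the wild-type arrays, against 11.87, 12.01 and 11.90 on the knockout arrays. The groups were separated by only 0.0081 log2 units, and the difference of 0.12 (95% interval -0.04 to 0.28) did not pass (limma adjusted p = 0.653).

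Etv6 encodes the repressor TEL, a frequent partner of translocations in childhood B cell leukemia. The log2 signals were 11.07, 11.15 and 11.22 for wild-type cells, against 10.84, 11.04 and 10.93 for knockout cells. All 3 knockout values were lower, the nearest by 0.029 log2 units, and the difference of -0.21 (95% interval -0.38 to -0.03) did not pass (limma adjusted p = 0.341). Elf1, an activator of lymphoid genes, had the smallest SD within each genotype (0.0059 and 0.018), with wild-type log2 signals of 12.20, 12.19 and 12.20 and knockout signals of 12.32, 12.30 and 12.29. Here too the groups did not overlap, yet the difference was 0.10 (95% interval -0.01 to 0.21, limma adjusted p = 0.493). Gabpa encodes the DNA-binding subunit of GABP, which activates genes of mitochondria and of the cell cycle and, in lymphocytes, Il7r. On the log2 scale it gave 11.74, 11.75 and 11.77 in wild-type cells, against 11.77, 11.85 and 11.75 in knockout cells. The groups overlapped, and the difference of 0.04 had a 95% interval from -0.09 to 0.16 (limma adjusted p = 0.938). For Fli1 and Gabpa, the intervals exclude differences as large as that of Spib in either direction.

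**Figure D3:**
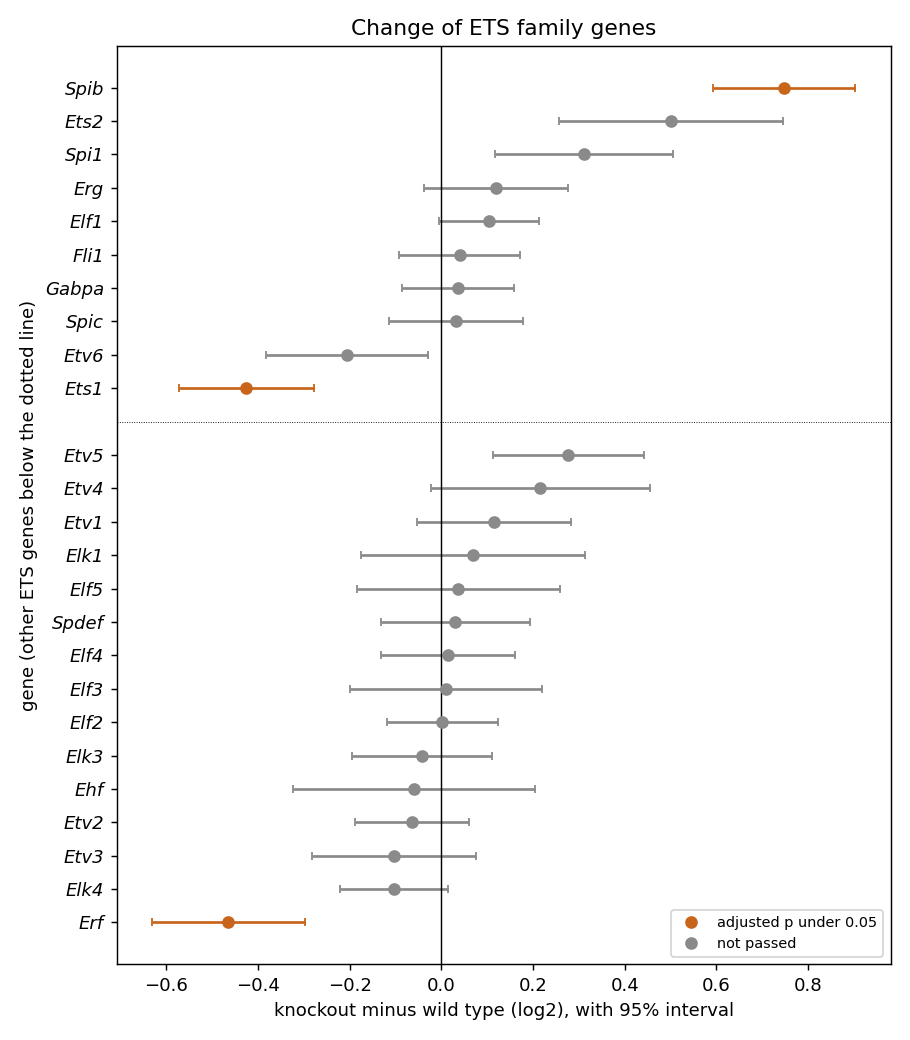
Difference between knockout and wild type (horizontal axis, log2, with 95% interval from limma, n = 3 each) of the 10 genes, above the dotted line, and of 15 other ETS family genes, below it. Orange points passed at an adjusted p of 0.05: Spib (0.75), Ets1 (-0.43) and Erf (-0.47). Etv5 is drawn by its brighter probe set, which differs in sign from its other one and may not read the deleted gene.

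Several of these genes lie next to each other in the genome. In the RefSeq gene order Ets1 and Fli1 are adjacent protein-coding genes on chromosome 9, and Erg and Ets2 are adjacent on chromosome 16, which also carries Gabpa and the deleted Etv5. Of these 4, Ets1 alone passed. The within-array difference Ets1 minus Fli1 went from -0.41, -0.40 and -0.50 to -0.93, -0.85 and -0.93 with the knockout, a shift of -0.47 ± 0.042 (SE). Ets2 minus Erg shifted by 0.38 ± 0.12. Neither difference overlapped between the genotypes, both pairs were chosen after their values were seen, and the exact permutation test gave its smallest value for both (p = 0.10, two-sided, n = 3 each). The measured genes on either side of Spib on chromosome 7, Mybpc2 and Pold1, differed by 0.15 and -0.01, and their groups overlapped (limma adjusted p = 0.704 and 0.994). On the far side of Ets1 lies Kirrel3, which differed by 0.09 (adjusted p = 0.660). No measured neighbour that is not itself one of the 10 genes passed the test.

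Within a genotype the same sample was often the highest, both in these genes and in bright probe sets at large. Knockout sample 2 had the highest knockout value in 8 of the 10 genes, and wild-type sample 3 the highest wild-type value in 9. The same samples were highest in 69.4% and 50.9% of the single-gene probe sets with a mean of at least 8. After quantile normalization of the deposited values, chosen for this count after the data were seen, knockout sample 2 was highest in 5 of the 10 genes and in 44.2% of those probe sets, and wild-type sample 3 in 8 of the 10 and in 37.7%. The groups of the same 7 genes lay apart, beside 36.3% of those probe sets. The changes of Spib (0.74) and Ets1 (-0.43) were nearly the same after this step, and both passed (adjusted p = 0.00115 and 0.00539, limma).

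The genes most like Spib across the 6 arrays were Zeb2, which encodes a zinc finger repressor, Klc1, which encodes a kinesin light chain, and Sdc4, which encodes the heparan sulfate proteoglycan syndecan-4. Their Pearson r with Spib was 0.999 each over 6 arrays of 2 genotypes, a description in which the difference between the groups holds most of the variation. They rose by 0.57, 0.52 and 0.84 on the log2 scale (limma adjusted p = 0.00527, 0.00556 and 0.0015).

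Of 15 other ETS family genes measured, represented by their brightest probe sets, 1 fell, none rose and 14 did not pass by limma; at an unadjusted p under 0.05 there were 2 (11% of all probe sets). The gene that fell was Erf, a repressor that ERK phosphorylation removes from the nucleus. It went from 8.14, 8.17 and 8.26 to 7.68, 7.83 and 7.66, a log2 change of -0.47 (adjusted p = 0.0202), and lost its call in 5 of the 6 fits that left out a sample, all but that without knockout sample 2. In the PEA3 subgroup, Etv4 gave a difference of 0.22 (adjusted p = 0.526) and Etv1 one of 0.11 (0.713). The other, dimmer probe set of Etv1 gave -0.0092 (limma adjusted p = 0.997). The dimmer probe set of Etv5 (-0.43, limma adjusted p = 0.0467) is not in the counts above. The ternary complex factors, which bind with serum response factor, gave -0.10 for Elk4, 0.07 for Elk1 and -0.04 for Elk3. The repressor gene Etv3 differed by -0.10 and Etv2, known from blood vessel development, by -0.06. Elf2 and Elf4, relatives of Elf1, differed by 0.00 and 0.01. The epithelial members Elf3, Elf5, Ehf and Spdef gave differences of 0.01, 0.04, -0.06 and 0.03. The median of the 15 was 0.01.

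Of partners and regulators of ETS factors, 6 of 24 rose, 2 fell and 16 did not pass, beside 3.08% of all probe sets and 6.59% of the bright single-gene ones that passed; the difference from other genes was not tested, and Irf4 and Gfi1 alone among the 8 passed in every fit that left out a sample. Irf4 and Irf8 bind DNA together with PU.1 or Spi-B at composite sites, and they moved in opposite directions. Irf4 rose from 10.95, 11.03 and 11.00 to 11.44, 11.57 and 11.52 (log2 change 0.52, limma adjusted p = 0.00689), and Irf8 fell from 12.10, 12.11 and 12.21 to 11.77, 11.85 and 11.78 (-0.34, adjusted p = 0.0315). Groups did not overlap for either. The related repressor genes Gfi1, whose product antagonises PU.1, and Gfi1b also went opposite ways: Gfi1 rose by 0.71 (adjusted p = 0.00528) and Gfi1b fell by 0.50 on the log2 scale (adjusted p = 0.0443). Pax5, which recruits Ets1 to its target Cd79a, rose by 0.43 (adjusted p = 0.0127), Ikzf3 by 0.36 (0.0182), Lmo2 by 0.35 (0.0311) and Jun, a partner of PU.1 and of Ets1, by 0.29 (0.0457). In the 6 fits that left out 1 sample, Pax5 passed in 3, Ikzf3, Lmo2 and Gfi1b in 1, and Irf8 and Jun in none (highest adjusted p 0.10 for Ikzf3, 0.144 for Lmo2, 0.175 for Gfi1b, 0.146 for Irf8 and 0.192 for Jun, limma).

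Among known targets of PU.1 and Spi-B in B cells, 4 of 20 rose, 1 fell and 15 did not pass, beside 3.08% of all probe sets and 6.59% of the bright single-gene ones that passed. The median log2 change of the 20 was 0.13, beside -0.00098 for all probe sets. Blk, a SRC-family kinase of B cells, rose from 10.42, 10.44 and 10.60 to 11.40, 11.63 and 11.52 (log2 change 1.03, limma adjusted p = 0.00203). The inhibitory Fc receptor gene Fcgr2b rose by 0.60 (adjusted p = 0.00553), Tlr9, a receptor of unmethylated DNA, by 0.59 (0.00316) and the kinase gene Syk by 0.34 (0.0265). Grap2, encoding an adaptor of lymphocyte signalling, fell from 12.32, 12.33 and 12.44 to 11.43, 11.57 and 11.49, a log2 change of -0.86 (adjusted p = 0.00148). Grap2 was thus lower in the genotype in which Spib was higher. Within each genotype the samples ranked in the same order for both genes, with wild-type sample 3 and knockout sample 2 highest. These samples were also highest in 50.9% and 69.4% of the bright single-gene probe sets, so the shared order is not particular to this pair. Of these 5, Syk lost its call in all 6 fits that left out a sample (highest adjusted p 0.118) and the others in none. Binding was not measured, and the part of Spib in these differences was not tested.

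**Figure D4:**
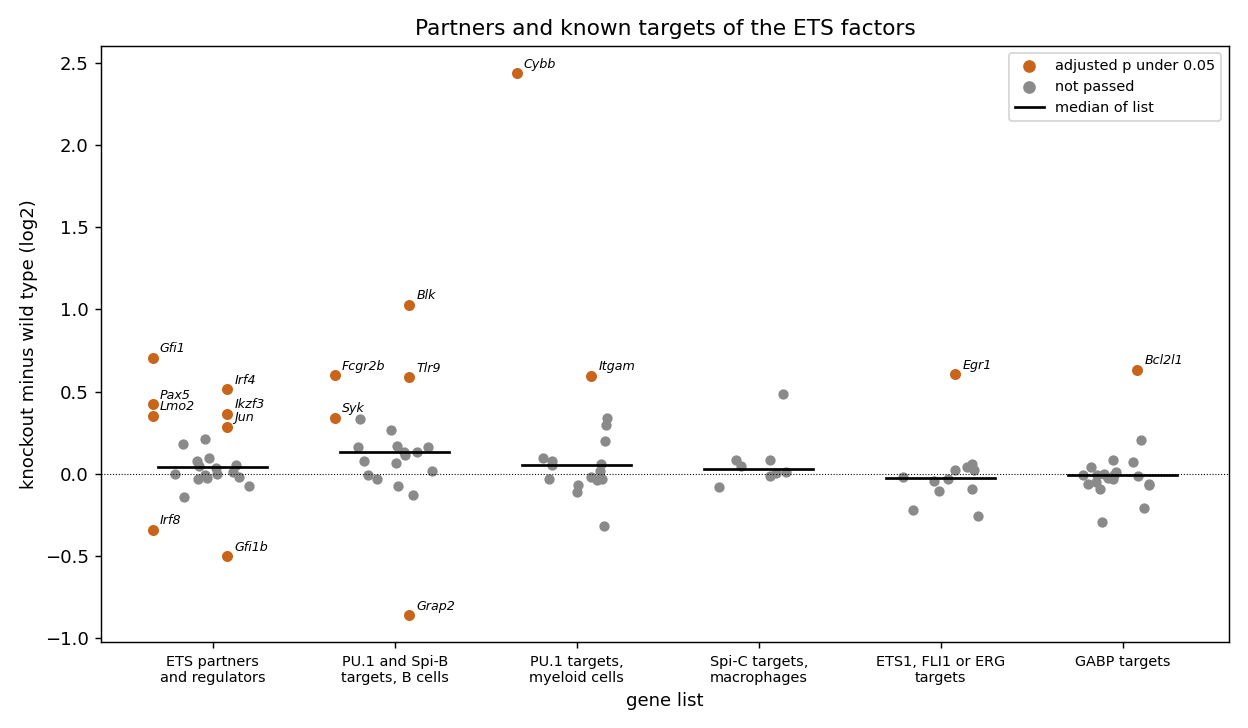
Difference between knockout and wild type (vertical axis, log2) of every measured gene in 6 lists of ETS partners and known targets (horizontal axis). Orange, labelled points passed at an adjusted p of 0.05 and bars mark list medians; PU.1 and Spi-B targets in B cells have the highest median (0.13), and Cybb lies farthest from 0 (2.44).

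Of PU.1 targets known from myeloid cells, 2 of 17 rose, none fell and 15 did not pass, beside 1.63% of all probe sets that were higher and 1.45% that were lower. Cybb, encoding the catalytic subunit of the phagocyte NADPH oxidase, which B cells also express, rose from 9.12, 9.20 and 9.28 to 11.59, 11.70 and 11.62, a log2 change of 2.44 (limma adjusted p = 5.34e-05). Itgam, the integrin chain CD11b, rose by 0.60 (adjusted p = 0.0235), from a mean of 7.24 to 7.83, and lost its call in 4 of the 6 fits that left out a sample (highest adjusted p 0.112). Fcgr3 and Cd68, with the next smallest p, differed by 0.30 and 0.34 without passing (adjusted p = 0.186 and 0.278). Of 13 measured myeloid markers, Ly6g (1.14, adjusted p = 0.0156) and Itgam rose and the other 11 did not pass, with a median of -0.0029 over the 13. Ly6g lost its call in 3 of the 6 fits that left out a sample (without wild-type sample 1, knockout sample 2 or knockout sample 3, limma adjusted p 0.0510 to 0.0694). The summed linear signal of the 13 ranged from 2136 to 2229 in the wild type and from 2284 to 2619 in the knockout. The probe sets of the 13 were brighter than 11.8% (S100a8) to 65.9% (Cd68) of all. The groups did not overlap for 6 of the 13, beside 16.5% of all probe sets and 29.1% of the bright single-gene ones. Whether the 13 differ from other genes in this was not tested. Among the 6 were Fcgr1, an Fc receptor gene, with a difference of 0.20 (limma adjusted p = 0.308), and the lysozyme gene Lyz2, brighter than 61.9%, with one of -0.32 (0.473). S100a8, Adgre1 and Mpo, at 11.8%, 16.1% and 32.4%, differed by -0.10, 0.08 and -0.02. The part of such cells in the result was not tested. In bulk RNA, more cells of a type and more RNA per cell cannot be told apart. Among 12 dendritic and plasmacytoid cell markers, cells in which Spib is also known, Flt3 rose (1.27, adjusted p = 0.00192) and 11 did not pass, with -0.17 for Itgax, 0.10 for Tcf4, -0.08 for Irf7, 0.05 for Siglech and 0.11 for Ccr9. The summed signal of that list was 4328 to 4541 in the wild type and 4738 to 5109 in the knockout. Tcf4 weighs most in the level of this sum. Its mean was 11.42 log2 units over all arrays, beside 8.68 for Bst2, the next brightest. The level does not tell which gene the higher knockout sum came from. Mean log2 signals of wild type and knockout were 7.62 and 8.90 for Flt3, but 11.37 and 11.47 for Tcf4. The share of each gene in the higher sum was not tested. Of 11 T and NK cell markers, the kinase gene Zap70 rose (0.33, adjusted p = 0.0470), a call lost in all 6 fits that left out a sample, and 10 did not pass, with -0.19 for Cd4, 0.34 for Ncr1 and 0.12 for Gzmb. None of 9 erythroid and megakaryocyte markers passed limma, nor any of 13 endothelial and stromal markers. At an unadjusted limma p under 0.05, reached by 11% of all probe sets, there were 1 of the 9 (Ppbp with 0.17) and 0 of the 13. Epor and Car1 of the former gave -0.15 and -0.19. Of the latter, Kdr gave -0.22, Col1a2 -0.13, Cxcl12 -0.05 and Pdgfrb -0.05.

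In the lists of targets of the remaining factors, 0 of 8, 1 of 12 and 1 of 20 genes passed, near the 3.08% of all probe sets and 6.59% of the bright single-gene ones. None of the 8 Spi-C targets of macrophages passed limma. At an unadjusted limma p under 0.05, reached by 11% of all probe sets, there was 1, the heme pathway gene Blvrb (0.49, adjusted p = 0.0933). The heme oxygenase gene Hmox1, the scavenger receptor gene Cd163 and the macrophage gene Cd5l differed by -0.08, 0.08 and 0.08, and the iron exporter gene Slc40a1 by -0.01. Of 12 targets of ETS1, FLI1 or ERG known from endothelium and megakaryocytes, 1 rose and 11 did not pass. The one that rose was the immediate-early gene Egr1 (0.61, limma adjusted p = 0.0193), which lost its call in 3 of the 6 fits that left out a sample (without wild-type sample 1, without wild-type sample 2 and without knockout sample 3, highest 0.0949). The endoglin gene Eng, the receptor gene Kdr and the platelet factor gene Pf4 gave -0.25, -0.22 and -0.09 (adjusted p = 0.138, 0.480 and 0.830). Of 20 GABP targets, Bcl2l1, encoding the survival protein BCL-XL, rose by 0.63 (adjusted p = 0.00499) and 19 did not pass. Bcl2 differed by -0.29 (adjusted p = 0.0808), the integrin gene Itgb2 by 0.20 (0.261), Etv6, which is in this list too, by -0.21 and the mitochondrial transcription factor gene Tfam by 0.07 (0.843). The medians of the 3 lists were 0.03, -0.03 and -0.01.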

How the data were processed

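Total RNA of 6 samples, 3 per genotype as given in the sample titles, was measured on 1-colour Affymetrix arrays. The authors deposited log2 values of 35556 probe sets, with 1 column per sample. The submitters' processing notes name RMA, which corrects background, quantile-normalizes and summarises probes, and Partek 6.5. The range of the values, 2.58 to 14.7, shows the log2 scale; RMA compresses differences of dim probe sets. Settings and chip definition were not stated in the sources used here, and no detection calls were used. The number of arrays limits the precision.

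Gene names came from a platform annotation table, in which 21789 probe sets had 1 gene symbol, 1621 several and 12146 none listed there; 21698 matched the GRCm38.p6 gene table by identifier. Where a gene had more than 1, the brightest stood for it. Limma 3.58.1 in R 4.3.3 (lmFit, eBayes, no covariate, no filter) was fitted to all probe sets and adjusted over all of them (threshold 0.05, 6.23 total degrees of freedom). On 35556 simulated probe sets with the variances measured here, it recovered 33% of 100 genes changed by 0.5 log2 units, 77% of 100 changed by 1, and had 4.35% false calls. Fewer features were changed there than the 1095 that passed in the data. These shares therefore do not give the sensitivity of the fit to the data.

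The 10 genes, the lists and the alternatives were chosen with earlier results of these data known. Of 216 list entries, 196 were measured. The genes to name were the 10, the other ETS genes, per list those that passed and the 4 of smallest p, the 3 genes most like the one of smallest p, and markers; genes beyond these, among them genome neighbours and further list members, were named after their values were seen, as were the 4 within-array pairs. The remaining entries were not analysed here.

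Sample numbers are shared by the genotypes, but no label ties a number to a mouse or day, so the samples were not treated as paired. The alternatives were the number as a block, gene means in place of the brightest probe set, weights per array, a robust variance trend, 3 further normalizations (cyclic loess, quantile, median), thresholds of 0.10 and 0.01, tests restricted to single-gene probe sets or to those above the dimmest 40%, and each sample left out in turn. For the lists, gene means were not used, and all but the last were added after the data were seen.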

Additional observations from a re-analysis of the deposited data

How the results depend on the processing

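Spib kept its call and direction in all 17 alternatives (log2 change 0.71 to 0.79, adjusted p 0.00018 to 0.0233). Ets1 kept its direction in all 17 and lost its call in 7: without any 1 sample other than knockout sample 2, with the sample number as a block (adjusted p = 0.0678) and at a threshold of 0.01 (adjusted p over all alternatives 0.00322 to 0.0919). Ets2 gained a call in 8, among them quantile normalization (adjusted p = 0.0352), array weights (0.0286), a variance trend (0.0426) and the fits to fewer features, namely those above the dimmest 40% (0.0335), probe sets with 1 gene symbol (0.0158) and gene means (0.0135). Spi1 gained one with array weights (0.0414) and with gene means (0.0494). The number of the 10 genes that passed, 2 with the deposited values, was thus 4 with array weights and 4 with gene means. It was 3 (Spib, Ets1 and Ets2) with quantile normalization, with a variance trend and at a threshold of 0.10. The count was also 3 above the dimmest 40% and with single-gene probe sets only. Median centring and cyclic loess gave 2, the block 1, a threshold of 0.01 gave 1, and fits with a sample left out 1 to 2. Each of the 10 genes has 1 probe set, so gene means left their log2 changes as they were (0.50 for Ets2, 0.31 for Spi1). Only the SE and the adjustment differed in that fit. What caused the other gains and losses was not tested. Fli1, Erg, Etv6, Elf1 and Gabpa passed in no alternative and kept their sign; Spic turned to -0.016 without knockout sample 3, and lay between -0.016 and 0.066 with a sample left out.

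Over all probe sets, 1095 passed, beside 544 with the block, 538 at 0.01, 565 to 857 with a sample left out, and 1048 (median centring) to 1475 (threshold of 0.10) in the other alternatives. Of 116 genes in the other ETS, partner and target lists, 18 passed, and 8 to 12 with a sample left out. In alternatives added for this count after the data were seen, 9 passed with the block, all of them among the 18, so that 9 lost their call (Pax5, Ikzf3, Lmo2, Irf8, Gfi1b, Jun, Syk, Egr1 and Erf); 8 passed at 0.01, and 17 to 23 in the others. Whether the sample numbers pair the samples is not known. Deviations from the genotype means correlated at -0.12, 0.02 and 0.26 between wild-type and knockout samples of the same number. For samples of unlike number the values lay between -0.35 and 0.31. Deviations within a genotype are tied to each other through its mean, so these values cannot decide the question. No detection calls were used, so differences of dim genes such as Spic have no known floor.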
